A study of Bos taurus with 28 samples.

Results

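bta-miR-196a and bta-miR-10b are the miRNAs of Hox gene clusters in this table of bovine milk extracellular vesicles (EVs), and they are 2 rows of a table that holds 130 other mature miRNAs. They were chosen by their measured differences between cows, so the levels by cow below are a description and carry no test. Small RNA was sequenced from EVs of milk that was hand-collected from 4 healthy dairy cows of a single experimental herd. Milk was taken at the evening and the morning milking on 4 consecutive days. A negative California Mastitis Test and a low somatic cell count were conditions of entry. Fat and cells were removed from the milk, casein was precipitated with acid, and the EVs were collected by filtration and ultracentrifugation. The comparison asked whether the miRNA cargo differs between milking sessions. There were 28 libraries, 14 from Evening and 14 from Morning, with 6 from Cow 3, 6 from Cow 1, 8 from Cow 2 and 8 from Cow 4. Per the study, some libraries could not be prepared, and Cow 3 had no Day 3 library and Cow 1 had no Day 2 library. Breed and age were not given in the sources used here. A cow was sampled at successive milkings, so the spread over its libraries measures variation within that animal and not between animals.

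Hox genes encode transcription factors that set position along the body axis and keep acting in adult tissues, the mammary gland among them. The miR-10 and miR-196 genes lie inside the Hox clusters, and their products pair with Hox mRNAs as well as with other targets. In mouse embryos miR-196 directs cleavage of Hoxb8 mRNA, and in human breast cancer cells miR-10b is known for repressing HOXD10. In the RefSeq annotation of the cattle assembly ARS-UCD2.0, MIR10B overlaps HOXD4 and lies between HOXD3 and HOXD8. Mature miR-196a can come from more than a single locus: MIR196A-1 overlaps HOXB9 beside HOXB8, and MIR196A-2 lies between HOXC9 and HOXC10. The near-identical miR-10a, whose gene overlaps HOXB3, and miR-196b, whose gene lies between HOXA10 and HOXA9, were not analysed here. Variants of each miRNA were grouped under its canonical form before deposition, so reads shared by near-identical copies could have been assigned to either copy, and both members are uncertain to that extent.

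The deposited values were log2 CPM (counts scaled to a common library size), from which whole reads could be recovered. Reads in all rows of the table totalled 101968 to 325211 per library (median 158620), and these totals cover the rows of the table and not the whole library. A miRNA with 0 reads stands at the common floor of 3.55 log2 CPM, where 71 of the 3696 values lie. Where no read was found, a level of as much as 3 reads is allowed, and 3 reads were worth between 8.35 and 32.4 CPM. Intervals on reads are exact 95% Poisson intervals and cover counting error only. miR-196a had 3523 reads in all and 2 values at the floor, whereas miR-10b had 131 reads and 10 of its 28 values at the floor. The levels of miR-10b therefore rest on few reads and are stated less firmly.

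miR-196a was nearly absent from the EVs of Cow 3 and abundant in those of the other cows. Its values in Cow 3 were 4.45 (Evening) and 3.55 (Morning) log2 CPM on Day 1, 4.29 and 7.68 on Day 2, and 4.12 and 3.55 on Day 4. These values rest on 2 and 0 reads, 1 and 22 reads, and 1 and 0 reads in the same order. All but the Day 2 Morning library were thus at or near the floor. Cow 1 ranged from 481 to 1050 CPM with a median of 9.18 log2 CPM, Cow 2 from 738 to 1662 CPM with a median of 10.33, and Cow 4 from 528 to 1012 CPM with a median of 9.44. Every library of Cow 3 lay below every library of the other cows, and miR-196a was the only miRNA of the table (0.758%) for which this was so. That count uses the contrast the members were chosen on, so nothing is read from it.

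The mean of miR-196a was 4.61 ± 1.55 log2 CPM in Cow 3 (SD, n = 6), against 9.28 ± 0.40 for Cow 1 (n = 6), 10.25 ± 0.39 for Cow 2 (n = 8) and 9.48 ± 0.33 for Cow 4 (n = 8). Pooled over libraries, Cow 3 had 26 reads, or 28.3 CPM (18.5 to 41.5). The pooled level of Cow 1 was 642 CPM (595 to 692, 687 reads), that of Cow 2 was 1250 CPM (1192 to 1309, 1777 reads) and that of Cow 4 was 731 CPM (688 to 777, 1033 reads). The descending order was therefore Cow 2, Cow 4, Cow 1 and Cow 3, and the ranges of Cow 2 and Cow 4 overlapped, as did those of Cow 4 and Cow 1. The pooled level in Cow 3 was 22.7-fold lower than in Cow 1 (15.4 to 35.0), 44.1-fold lower than in Cow 2 (30.0 to 67.8) and 25.8-fold lower than in Cow 4 (17.5 to 39.7). On the mean log2 scale Cow 3 differed from Cow 1 by -4.68, from Cow 2 by -5.65 and from Cow 4 by -4.87, each the largest difference of any miRNA for that pair of cows. Counted from the most abundant miRNA, miR-196a ranked 129 in Cow 3, where only 3 miRNAs ranked below it, against ranks of 60, 55 and 57 in Cows 1, 2 and 4. A read covers a whole mature miRNA, so these ranks need no scaling for length. In EVs isolated from milk, fewer vesicles from a type of cell and fewer miR-196a copies in each of them cannot be told apart.

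**Figure D1:**
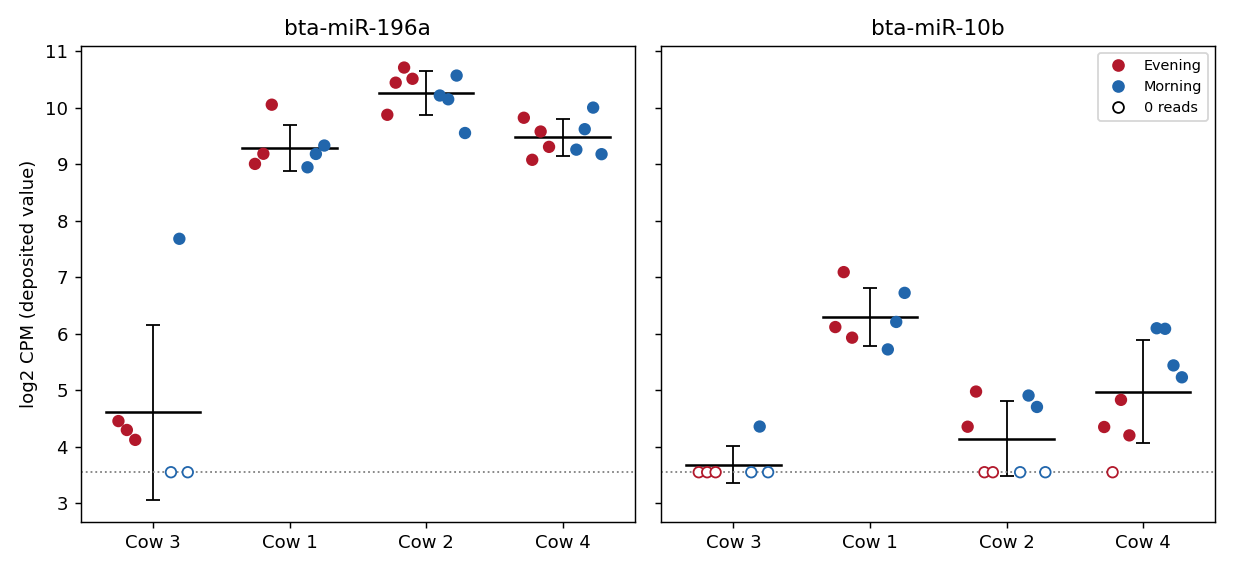
Deposited log2 CPM of bta-miR-196a (left) and bta-miR-10b (right) in the 28 libraries by cow, with Evening in red, Morning in blue, open symbols for 0 reads, the dotted line at the floor of 3.55, and black bars for the cow mean ± SD (n = 6 for Cow 3 and Cow 1, 8 for Cow 2 and Cow 4). For miR-196a the Cow 3 libraries lie apart from all others, with the Day 2 Morning library at 7.68; for miR-10b 5 of 6 Cow 3 libraries and 4 of 8 Cow 2 libraries are at the floor.

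The low level in Cow 3 depended in size on the Day 2 Morning library, which held 22 of the 26 reads. That library stood at 193 CPM (121 to 292), where miR-196a ranked 80. The other 5 libraries of Cow 3 held 4 reads together, or 4.97 CPM (1.35 to 12.7), and averaged 3.99 ± 0.42 log2 CPM. Day 2 Morning was thus 38.8-fold above them (13.2 to 155) and still below the lowest library of any other cow. Without it, the pooled level in Cow 3 was 129-fold lower than in Cow 1 (50.2 to 476), 251-fold lower than in Cow 2 (98.0 to 924) and 147-fold lower than in Cow 4 (57.3 to 541). Day 2 Morning was singled out as the highest library of Cow 3, so larger folds without it were fixed in advance. The intervals of these folds and of the 38.8-fold do not cover that choice.

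miR-10b was also lowest in Cow 3, but it was a rare miRNA in the other cows too. It had 0 reads in 5 of the 6 Cow 3 libraries and 1 read in Day 2 Morning (4.35 log2 CPM), which pools to 1.09 CPM (0.0276 to 6.07). In Cow 1, where every library held miR-10b reads, the values for Evening and Morning were 6.12 and 5.72 log2 CPM on Day 1, 7.09 and 6.21 on Day 3, and 5.93 and 6.72 on Day 4. In Cow 2 they were 4.35 and 3.55 on Day 1, 4.97 and 4.90 on Day 2, 3.55 and 4.70 on Day 3, and 3.55 in both sessions on Day 4. Cow 1 thus lay above Cow 2 in all of its libraries, and 4 of the 8 libraries of Cow 2 had 0 reads. In Cow 4 the values were 4.35 and 6.09 on Day 1, 3.55 and 6.08 on Day 2, 4.83 and 5.44 on Day 3, and 4.20 and 5.23 on Day 4. The Evening values of Cow 4 lay within the range of Cow 2, and those of Morning on Day 1 and Day 2 lay within the range of Cow 1.

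The mean of miR-10b was 3.68 ± 0.33 log2 CPM in Cow 3, against 6.30 ± 0.51 for Cow 1, 4.14 ± 0.66 for Cow 2 and 4.97 ± 0.91 for Cow 4 (SD, n = 6, 6, 8 and 8). Beside the 1.09 CPM of Cow 3, the pooled level of Cow 1 was 72.9 CPM (57.7 to 91.0, 78 reads), that of Cow 2 was 9.85 CPM (5.38 to 16.5, 14 reads) and that of Cow 4 was 26.9 CPM (19.0 to 36.9, 38 reads). The descending order was Cow 1, Cow 4, Cow 2 and Cow 3, and the ranges of each pair of neighbours in it overlapped. With its single read, Cow 3 was 67.0-fold lower than Cow 1 (11.7 to 2679), 9.04-fold lower than Cow 2 (1.38 to 382) and 24.7-fold lower than Cow 4 (4.18 to 1002). Without Day 2 Morning, which held that read, Cow 3 had no reads (0 to 4.58 CPM), a lower level fixed by the choice of library. With 3 reads put in for the other 5 libraries, it was 19.6-fold lower than Cow 1, 2.64-fold lower than Cow 2 and 7.22-fold lower than Cow 4. These folds take the pooled level of the other cow as exact, so they are not lower limits. The means of the deposited values differed less, by -2.62, -0.46 and -1.29 against Cow 1, Cow 2 and Cow 4, since the floor limits how low a value can go. miR-10b was the lowest of all miRNAs by mean level in Cow 3 and in Cow 2, and ranked 101 in Cow 1 and 129 in Cow 4.

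The cows were ordered differently by the members. Cow 2 was highest for miR-196a and second lowest for miR-10b, so that miR-196a reads per miR-10b read numbered 26.0 in Cow 3 (4.27 to 1066), while Cow 1 had 8.81 (6.96 to 11.3), Cow 2 had 127 (75.4 to 233) and Cow 4 had 27.2 (19.7 to 38.6). Over the 28 libraries the members had a Pearson r of 0.40, but over the 22 libraries without Cow 3 it was -0.49, and after subtraction of cow means it was 0.25 (n = 28). These coefficients are descriptive, because libraries of a cow share the animal and the scaling. The cow accounted for 89.6% of the variance of miR-196a and 69.6% of that of miR-10b, beside a median of 26.8% over all miRNAs. Variation between sessions within a day took 5.34% for miR-196a and 21.4% for miR-10b. miR-196a had the largest variance in the table and the second largest share for cow. The members were chosen on differences between cows, so high shares for cow and these ranks are tied to that choice. Nothing is read from them.

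Other miRNAs low in Cow 3 were compared in its Day 2 Morning library. Of the 10 miRNAs lowest in the rest of Cow 3 relative to the other cows, 6 were higher in this library than in each of the other 5 Cow 3 libraries: miR-196a, miR-885, miR-2285bi, miR-10b, miR-3432a and miR-1306. The library was singled out by its miR-196a and miR-10b values, so those entries were fixed by that choice. Reads in it were few for miR-2285bi (6), miR-1306 (4) and miR-10b (1), with 22 each for miR-196a and miR-3432a. The best counted, miR-885 with 126 reads, stood at 10.13 log2 CPM, against a mean of 8.93 in the other Cow 3 libraries and 11.66 in the other cows. The remaining 4, which were miR-2340, miR-2890, miR-143 and miR-29b, did not lie above those libraries. Since these miRNAs were picked for being low in the other 5 libraries, a library left out of the choice tends to lie higher. With the same choice made for each other Cow 3 library in turn, 0 to 3 of 10 lay above the rest. Day 2 Morning stayed among the rest each time, and its high values keep those counts down. They are therefore no baseline for the 6, and nothing is read from the contrast. Across all miRNAs the library was not distinct by such counts, with 30 above and 26 below every other library of Cow 3, beside 30 and 32 in Day 1 Evening and 13 to 27 above and 12 to 30 below in the other 4. Its profile had a mean r over miRNAs of 0.97 with the other libraries of Cow 3 and of 0.96 with those of the other cows, where the other Cow 3 libraries had 0.98 among themselves. Both miR-190b reads of Cow 3 were in this library. miR-190b was at the floor in all libraries of Cow 1 and Cow 4, and averaged 6.02 log2 CPM in Cow 2. Why miR-196a was higher in this library was not tested.

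**Figure D2:**
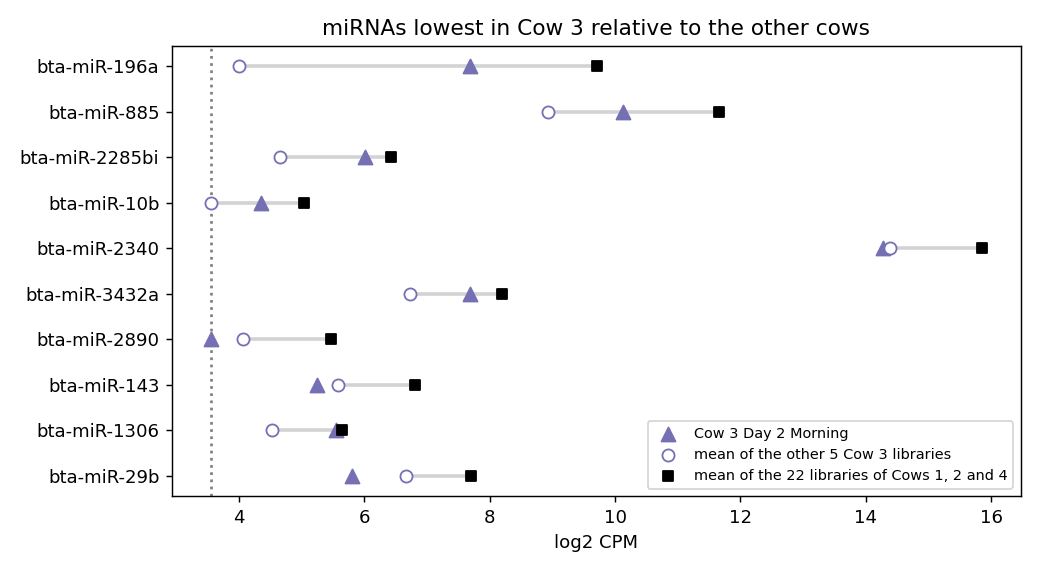
Log2 CPM (horizontal axis) of the 10 miRNAs lowest in Cow 3 relative to the other cows, with triangles for the Cow 3 Day 2 Morning library, open circles for the mean of the other 5 Cow 3 libraries, squares for the mean of the 22 libraries of Cow 1, Cow 2 and Cow 4, and the dotted line at the floor of 3.55. In 6 of the 10 the triangle lies on the side of the other cows, with miR-196a at 7.68 between 3.99 and 9.71; in 4 it does not.

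miRNAs whose pattern over the 28 libraries was most like that of miR-196a were miR-885 (Pearson r = 0.78), miR-3432a (0.73), miR-21-5p (0.66), miR-30d (0.58) and miR-2285bi (0.58). This likeness rested largely on Cow 3, since without it r was -0.17 for miR-885, 0.027 for miR-3432a and -0.066 for miR-30d, although 0.38 for miR-21-5p and 0.52 for miR-2285bi (n = 22). With cow means removed, the closest were miR-190b (0.59), miR-2285bi (0.54) and miR-885 (0.48), and without Cow 3 these were 0.020, 0.25 and 0.27. For miR-10b the most alike were miR-885 (0.61), miR-143 (0.60), miR-30d (0.57), miR-155 (0.56) and miR-342 (0.55), which stood between 0.39 and 0.52 without Cow 3. miR-143 is abundant in smooth muscle and other mesenchymal cells, and miR-155 and miR-342 are abundant in lymphocytes. With cow means removed, miR-30d (0.67), miR-532 (0.59) and miR-148c (0.58) were closest to miR-10b, and without Cow 3 their r was 0.74, 0.66 and 0.59. Reads of miR-10b are so few that its correlations are weak descriptions.

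The sequence relatives of the members are given as levels by cow. miR-196a had the largest difference of any miRNA between Cow 3 and each other cow. That its relatives differed less was therefore fixed in advance, and nothing is read from it. miR-99a-5p, a member of the wider miR-10 family, averaged 12.75 ± 0.20 log2 CPM in Cow 3, against 12.36 ± 0.22, 12.38 ± 0.20 and 12.57 ± 0.21 in Cow 1, Cow 2 and Cow 4. Its paralogue miR-99b averaged 9.64 ± 0.19 in Cow 3, against 10.16 ± 0.55, 10.45 ± 0.46 and 9.97 ± 0.40 in those cows. miR-125b, which is transcribed with miR-99a or its paralogues, averaged 11.77 ± 0.27 in Cow 3, against 11.70 ± 0.24, 11.55 ± 0.19 and 11.74 ± 0.19. miR-125a, the cluster partner of miR-99b, averaged 12.87 ± 0.34 in Cow 3, against 13.48 ± 0.39, 13.34 ± 0.34 and 13.24 ± 0.25. The largest of these differences from Cow 3, that of miR-99b against Cow 2, was 0.81 in size on the log2 scale. For the same pair of cows miR-10b itself differed by -0.46, a value limited by the floor. The 8 let-7 miRNAs of the list, to which miR-196 is related in sequence and from which let-7a-3p, of the opposite hairpin arm, was left out, summed to 271453 to 455679 CPM in Cow 3, against 269628 to 654146 CPM across the other cows.

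Lists of miRNAs typical of cell types that release vesicles into milk, or that could contaminate it, were all measured and none of their members was at 0 in all libraries. The stromal list without miR-10b (3 of 3 measured) summed to 8664 to 11711 CPM in Cow 3, against 7451 to 11180 CPM across the other cows. Its members did not go the same way. The abundant miR-99a-5p and miR-125b, which dominate the sum, had their highest mean in Cow 3. The rarer miR-143 averaged 5.52 log2 CPM in Cow 3, against 6.87, 6.58 and 6.98 in Cow 1, Cow 2 and Cow 4. The epithelial list (6 of 6, such as the miR-200 family, which maintains epithelial identity) summed to 88796 to 102799 CPM in Cow 3, against 68712 to 109081 CPM. The immune list (6 of 6) summed to 24393 to 35816 CPM in Cow 3, against 29388 to 46813 CPM, and the red blood cell list (4 of 4) to 1176 to 1891 CPM, against 464 to 1705 CPM. Each range in Cow 3 overlapped that of the other cows. Nothing is read from this, since miR-196a was chosen on this contrast and was the only miRNA separated in this way. Sums led by abundant members also cannot show a change in rarer ones. Their part in the levels of the members was not tested.

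Between milking sessions the difference of neither member passed the test. miR-196a had a lowest, median and highest value of 4.12, 9.44 and 10.71 log2 CPM in Evening libraries, against 3.55, 9.29 and 10.57 in Morning libraries, and the groups overlapped almost fully. The difference of Evening minus Morning was -0.024 (SE 0.28, 95% interval -0.59 to 0.54, adjusted p = 0.996 by limma with cow as covariate and Benjamini-Hochberg adjustment over all miRNAs). Of the 14 pairs of the same cow and day, Evening was higher in 10 and lower in 4. The sign of the mean turned on Cow 3, where the pair of Day 2 differed by -3.38 and those of Day 1 and Day 4 by 0.91 and 0.57. Without Cow 3 the difference was 0.14, with Evening higher in 8 of 11 pairs, and it remained far from the threshold.

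For miR-10b the lowest, median and highest values were 3.55, 4.27 and 7.09 log2 CPM in Evening libraries, against 3.55, 5.07 and 6.72 in Morning libraries, again with wide overlap. Evening libraries held 54 reads and Morning libraries 77, with 6 and 4 libraries at the floor. The difference was -0.47 (SE 0.24, 95% interval -0.96 to 0.027, unadjusted p = 0.0629 and adjusted p = 0.996 by limma). Evening was lower in 7 of 14 pairs, higher in 4 and equal at the floor in 3, and an exact two-sided sign permutation test over the pairs gave p = 0.0938. No miRNA was called for session at a false discovery rate of 0.05 (0%), with 2 at an unadjusted p below 0.05 by limma, and none called with 1 below 0.05 by limma-voom on the recovered reads. The difference of miR-10b depended in size on the prior count (-0.79 at 0.5 and -0.28 at 5), and it was -0.62 with read total as covariate (unadjusted p = 0.0112, adjusted p = 0.990 by limma). That miR-10b had among the lowest p for session was known from earlier results of these data and gives no independent support.

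The lower Evening values of miR-10b lay mostly in Cow 4. There it had 1, 0, 6 and 1 reads in the Evening libraries of Days 1 to 4, against 12, 9, 6 and 3 reads in the Morning libraries. All 4 Evening values, from 3.55 to 4.83 log2 CPM, lay below all 4 Morning values, from 5.23 to 6.09, and miR-10b was the only miRNA of the table (0.758%) with this separation in Cow 4. Among all miRNAs, Evening lay wholly below Morning for 5 in Cow 1, 0 in Cow 2 and 3 in Cow 3. It lay wholly above for 3, 0 and 6 in these cows and for 0 in Cow 4. Cow 1 and Cow 3 have fewer libraries, which makes such separations easier. Nothing is read from the count in Cow 4. The pairs differed by -1.75, -2.54, -0.61 and -1.03, a mean of -1.48 ± 0.85 (SD, n = 4), for which the exact two-sided sign permutation test gave p = 0.125, the smallest that 4 pairs allow. Pooled, miR-10b was 4.06-fold lower in the Evening than in the Morning of Cow 4 (1.82 to 10.2, 8 against 30 reads). The Day 3 Evening library held 6 of these 8 reads, and without it, an alternative added after the data were seen, miR-10b was 8.30-fold lower (2.11 to 71.6, 2 against 30 reads). With any other library of Cow 4 left out, the fold ran from 3.45 to 4.51. The mean pair difference of Cow 1 was 0.16 ± 0.86 (n = 3), that of Cow 2 was -0.070 ± 0.81 (n = 4) and that of Cow 3 was -0.27 ± 0.47 (n = 3), with pairs of either sign in Cow 1 and Cow 2. Without Cow 4 the session difference of miR-10b was -0.060.

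Whether the session difference varied between cows was tested with an interaction term. For miR-10b the moderated F was 2.97 (unadjusted p = 0.0498, the smallest in the table), and the adjusted p was 0.969 by limma, so the difference between cows did not pass. For miR-196a F was 0.50 (unadjusted p = 0.686, adjusted p = 0.969 by limma), with mean pair differences of 0.26 ± 0.40 (Cow 1), 0.26 ± 0.54 (Cow 2), -0.64 ± 2.39 (Cow 3) and -0.068 ± 0.51 (Cow 4). No miRNA was called (0%), with 1 at an unadjusted p below 0.05 by limma, and none called with 2 below 0.05 by limma-voom.

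**Figure D3:**
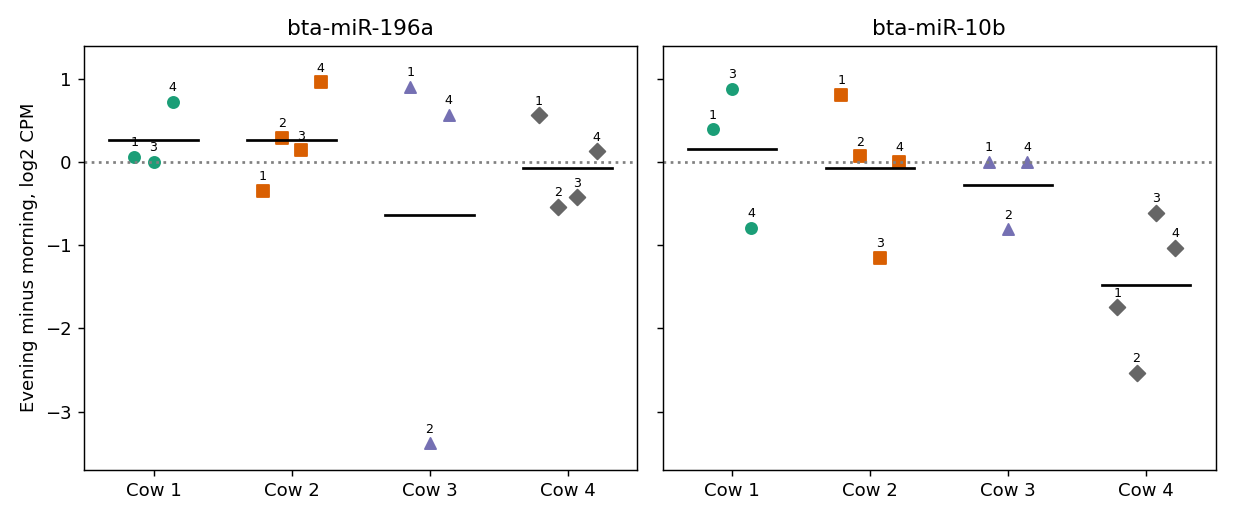
Evening minus Morning difference in log2 CPM for each cow and day (the number at a symbol is the day, black bars are cow means), with bta-miR-196a left and bta-miR-10b right. For miR-196a the Day 2 pair of Cow 3 stands alone at -3.38, and for miR-10b the 4 pairs of Cow 4 lie between -2.54 and -0.61.

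Somatic cell count (SCC), the number of mostly immune cells shed into milk, ran from 18000 to 300000 cells/mL, and neither member passed the test for a slope on it. The slope per doubling of SCC was -0.038 for miR-196a (SE 0.17, 95% interval -0.39 to 0.31, adjusted p = 0.982 by limma with cow as covariate) and 0.13 for miR-10b (SE 0.16, 95% interval -0.19 to 0.45, adjusted p = 0.802). With day as covariate the slope of miR-196a was -0.32 (unadjusted p = 0.166, adjusted p = 0.942 by limma), and without Cow 2 it was -0.22. Of all miRNAs, 3 were called (2.27%), which were miR-141 (-0.31), miR-2285bf (-0.57) and miR-320a (0.27), and this count ran from 0 to 6 when 1 library was left out. The highest counts fell on Day 3, with 190000 cells/mL in the Evening milk of Cow 1 and more in its Morning milk, and with 300000 cells/mL in the Evening milk of Cow 2 and less in its Morning milk. In Cow 2, miR-196a was at 10.71 and 10.57 log2 CPM on that day, above its other 6 libraries (9.55 to 10.51), whereas in Cow 1 it was at 9.18 in both sessions, within its other 4 libraries (8.94 to 10.05). miR-10b on Day 3 was at 7.09 and 6.21 in Cow 1, against 5.72 to 6.72 on other days, and at 3.55 and 4.70 in Cow 2, against 3.55 to 4.97. Values above those of the other days were thus seen in some of these libraries and not in others. SCC ran from 28000 to 53000 cells/mL in Cow 3 and from 18000 to 58000 cells/mL in Cow 4. Whether SCC had a part in the difference between these cows was not tested.

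**Figure D4:**
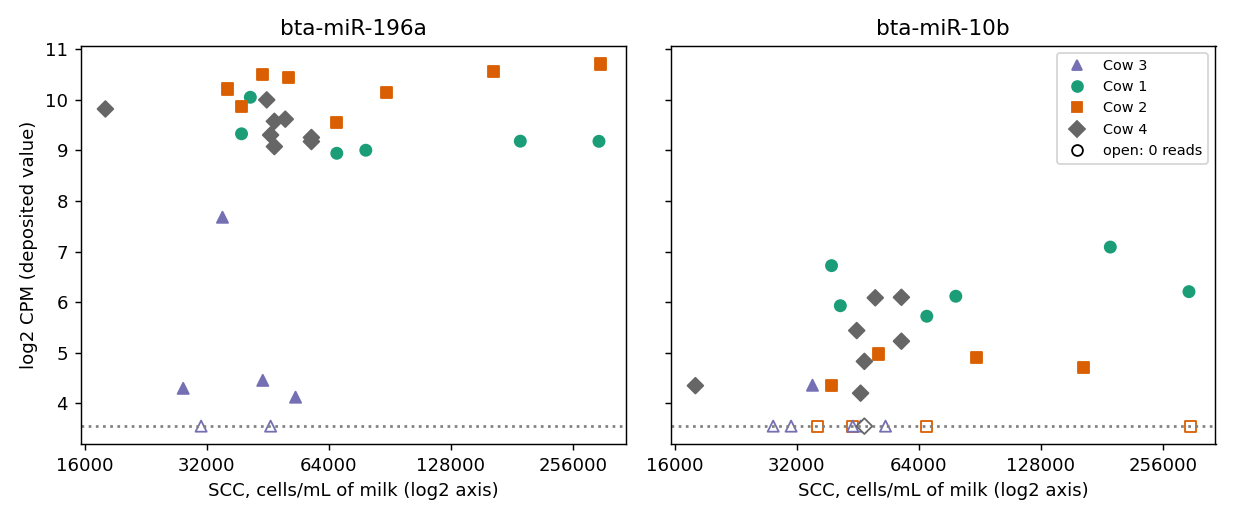
Deposited log2 CPM of bta-miR-196a (left) and bta-miR-10b (right) against the SCC of the same milk in cells/mL on a log2 axis, with a symbol and colour for each cow, open symbols for 0 reads and the dotted line at the floor of 3.55. For miR-196a the Cow 3 libraries lie below those of other cows at similar SCC, and the 4 libraries at the highest SCC, from Cow 1 and Cow 2, lie within or just above the range of their own cow.

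Across collection days no change of a member passed the test. For miR-196a, with cow and session as covariates, the difference was 0.73 for Day 2 minus Day 1 (SE 0.40, 95% interval -0.085 to 1.54, adjusted p = 0.703 by limma), 0.47 for Day 3 minus Day 1 (SE 0.40, adjusted p = 0.632) and 0.060 for Day 4 minus Day 1 (SE 0.36, adjusted p = 0.963). The first rested on the Day 2 Morning library of Cow 3, without which it was 0.11, and it was 1.47 in Morning libraries alone (unadjusted p = 0.0397, adjusted p = 0.968 by limma), against -0.018 in Evening libraries. For miR-10b the differences were 0.44 (SE 0.35, adjusted p = 0.742 by limma), 0.28 (SE 0.35, adjusted p = 0.808) and -0.13 (SE 0.32, adjusted p = 0.946). With 1 library left out, the Day 2 difference of miR-10b ran from 0.25 to 0.79, the highest without Cow 4 Day 2 Evening (unadjusted p = 0.0193, adjusted p = 0.579 by limma), and that of Day 3 from 0.095 to 0.48, the lowest without Cow 1 Day 3 Evening. By limma-voom the Day 2 difference was 0.93. The differences with all libraries were each smaller than 2 standard errors. Called miRNAs numbered 0 on Day 2 (0%), 3 on Day 3 (2.27%) and 0 on Day 4 (0%), neither member among them, with 10, 19 and 4 at an unadjusted p below 0.05 by limma. By limma-voom 0, 3 and 0 were called and 11, 20 and 6 were below 0.05. Since Cow 1 has no Day 2 and Cow 3 no Day 3 library, the days were compared over different cows, and the count for Day 3 ran from 0 to 7 when 1 library was left out.

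None of the miR-10 relatives and their cluster partners (4 measured) and none of these 8 let-7 miRNAs was called for session, SCC or day. Of the stromal, immune and red blood cell lists none was called either. In the epithelial list, 1 of 6 fell with SCC, which was miR-141 (-0.31, adjusted p = 0.0321 by limma), and 1 of 6 rose on Day 3, which was miR-375 (0.50, adjusted p = 0.0110 by limma), where 2.27% of all miRNAs were called in each comparison. The number of calls for SCC was 0 with day as covariate, without Cow 1 Day 3 Evening or without Cow 1 Day 4 Morning, and that for Day 3 was 0 without Cow 1 Day 3 Evening or without Cow 2 Day 3 Morning. For session the median difference over the list was 0.0031 for the relatives, -0.019 for their cluster partners and 0.020 for let-7, beside 0.010 over all miRNAs.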

How the data were processed

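Per the study's methods, the authors removed adapters, low-quality reads and PCR duplicates from NEXTflex small RNA libraries, kept sequences above a CPM minimum in part of the libraries, annotated them with mature cattle sequences from miRBase and merged isomiRs into their canonical miRNA. The deposited values are log2 CPM, and per the labels the authors used edgeR (version not given). The genome build was not given in the sources used here. A single table of 132 miRNAs held all 28 libraries, and 0 columns were left unmatched. Read as log2 CPM with a prior count of 2, all 3696 values gave whole reads within 0.01. Since that minimum preceded the merging, rare variants of a low miRNA can be missing from its count. Counting error dominates below about 3 reads (8.35 to 32.4 CPM).

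Log2 values were tested with limma 3.58.1 in R 4.3.3 (mean-variance trend, two-sided, Benjamini-Hochberg over 132 miRNAs, threshold 0.05), with cow as covariate, and with session added for days. The code was tested on simulated data. Reads were pooled in Python 3.11.15. Evening and Morning of a day come from the same cow and are paired, and the deviations of the 14 pairs correlated with a mean r of 0.077, against -0.20 for the same cow on other days. Cow and session were removed before these correlations, which by itself pulls values within a cow below 0. The -0.20 is therefore not a measured baseline. Named miRNAs were the members, the 5 most correlated with each (3 with cow means removed) and their relatives. For Cow 3 Day 2 Morning they also included the 10 lowest in the rest of Cow 3 relative to the other cows. No such list is given for Cow 1 Day 4 Evening, which was also set apart in its cow. The members and lists were chosen with earlier results of these data known. Alternatives changed scaling, prior count, filter, covariates, model and the cows or libraries included.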

Additional observations from a re-analysis of the deposited data

Results flagged for a closer look

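Among the 8 sets formed by a member and a cow, 3 held a library far from the others for a group of that size, where chance alone would set apart about 5% of groups of varying values. In Cow 3, the Day 2 Morning library had miR-196a at 7.68 log2 CPM, and its distance to the next library took 0.781 of the whole range of that cow. The same library held the single miR-10b read of Cow 3, all other libraries of the cow being at the floor, so that its distance took the full range (1). With the other 5 libraries tied at 0 reads, any single read gives that value, so it carries no weight as a count beside that share. In Cow 1, the Day 4 Evening library had miR-196a at 10.05 log2 CPM (1050 CPM on 192 reads), against 481 to 631 CPM in the other 5 libraries, and its distance took 0.652 of the range.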

How the results depend on the processing

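No alternative gave a member a call for session, SCC, day or interaction, and several effects changed sign. The session difference of miR-196a was 0.018 with library medians set equal, 0.082 with a prior count of 0.5, 0.14 with limma-voom and 0.14 without Cow 3, and -0.12 to 0.25 when each library was left out in turn. With the replicate block (each cow and day as a pair) it was -0.024 and that of miR-10b -0.47, with 0 miRNAs called, and no call changed. The difference of miR-10b stayed below 0 but ran from -0.79 (prior count 0.5) to -0.060 (without Cow 4). The SCC slope of miR-196a was 0.0068 with limma-voom, -0.32 with day as covariate, -0.22 without Cow 2 and 0.030 without Cow 1 (-0.13 to 0.020 with libraries left out), and that of miR-10b was -0.024 in Evening libraries. Day 2 minus Day 1 of miR-196a was -0.018 in Evening and 1.47 in Morning libraries. Day 4 minus Day 1 was -0.028 (plain read totals), -0.090 (Morning libraries) and -0.16 (without Cow 1) for miR-196a, and 0.076 (limma-voom), 0.033 (Morning libraries) and 0.0012 (without Cow 4) for miR-10b. With libraries left out these ran from -0.099 to 0.21 and from -0.26 to 0.050. miR-10b has no value among miRNAs with a mean of at least 7 log2 CPM (94 miRNAs). The cause of these shifts was not tested.

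The number of miRNAs called for SCC, 3, was 1 without the trend, 6 with the filter, 5 with read total and 0 with day as covariate, 1 in Morning and 0 in Evening libraries, and 0, 0, 5 and 6 without Cow 1, 2, 3 and 4. For Day 3, also 3, it was 7 with medians set equal, 5 with the robust fit, 0 with plain totals, 5 with the filter, 8 with read total as covariate, 0 in Morning and 0 in Evening libraries, and 0, 1 and 11 without Cow 1, 2 and 4. With 1 library left out the counts ran from 0 to 6 for SCC and from 0 to 7 for Day 3. For SCC this held 0 or 1 without Cow 1 Day 3 Evening, Day 3 Morning or Day 4 Morning, or Cow 2 Day 1 Morning or Day 3 Morning, and 5 or 6 without Cow 2 Day 2 Morning, Cow 3 Day 2 Morning or Day 4 Evening, or Cow 4 Day 1 Morning. For Day 3 it was 0 without Cow 1 Day 3 Evening or Cow 2 Day 3 Morning, 5 without Cow 4 Day 1 Morning and 7 without either Day 3 library of Cow 4.

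Cow 3 stayed lowest under each alternative tried. The size depended on the prior count: at 0.5, Cow 3 minus Cow 2 was -6.75 and Cow 3 minus Cow 4 -5.97 for miR-196a, and for miR-10b Cow 3 minus Cow 1 was -4.24 and Cow 3 minus Cow 4 -2.42. At a prior of 5, miR-10b differed by -1.67 from Cow 1. From pooled reads it differed by -6.07, -3.18 and -4.63 from Cow 1, Cow 2 and Cow 4. Depth limits miR-10b, with 131 reads over 28 libraries.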
